A study of Mus musculus with 8 samples.

Results

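The 10 immediate early genes Fos, Fosb, Jun, Junb, Egr1, Atf3, Ier2, Klf2, Klf4 and Dusp1 were examined in RNA-seq of mouse distal colon epithelium, out of 54094 genes with usable estimates. They were picked by symbol through their Ensembl IDs, after it was known that their counts were low in Degs2_KO library 3 and WT library 1, so that pattern and the difference between the genotypes are described here without a test. All 10 passed the filter on low counts. The enzyme of Degs2 adds a double bond or a hydroxyl group to dihydroceramides and is the source of phytoceramides. Degs2_KO mice (4 libraries) were homozygous mutants for Degs2, and WT mice (4 libraries) carried the normal gene. Both groups were c57bl6/j and received no labelled treatment. The labels give neither the design of the mutant allele nor the ages of the mice. Epithelial cells of both groups were loosened from pieces of distal colon with EDTA at room temperature and strained, with no sort, and total RNA was taken from them. Whether each library is a separate mouse is not labelled, so every SE and p-value below covers the spread between these libraries, which may be technical.

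Immediate early genes are transcribed within minutes of a stimulus by factors that are already in the cell, such as SRF with its ternary complex partners and CREB, and need no new protein. Most of their mRNAs and proteins are short-lived, and several of the proteins are themselves transcription factors: FOS and JUN proteins pair to form AP-1, EGR1 binds GC-rich sites, and KLF2 and KLF4 are zinc finger factors. Growth factors, mechanical strain and the dissociation of a tissue into cells are all known to induce them.

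The promoters of 6 members are shown: Fosb, Klf2 and Dusp1, whose levels varied most between libraries, Klf4, which varied least, and Fos and Jun, the founding pair of AP-1. Each line holds 200 bases, from 250 to 51 before the annotated start, 5′ to 3′ on the gene's strand, from RefSeq on GRCm38.p6, and capitals mark TGACG, the core of the cyclic AMP response element, or its complement CGTCA.
Fos (chr12:85473640-85473839, plus strand): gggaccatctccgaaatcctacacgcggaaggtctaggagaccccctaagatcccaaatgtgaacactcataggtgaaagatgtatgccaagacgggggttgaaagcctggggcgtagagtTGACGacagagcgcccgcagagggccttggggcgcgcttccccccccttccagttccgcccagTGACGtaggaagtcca
Fosb (chr7:19310096-19310295, minus strand): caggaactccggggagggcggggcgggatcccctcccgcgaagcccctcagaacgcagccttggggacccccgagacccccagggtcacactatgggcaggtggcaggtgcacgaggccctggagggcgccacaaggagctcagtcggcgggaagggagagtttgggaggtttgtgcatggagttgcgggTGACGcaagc
Jun (chr4:95052273-95052472, minus strand): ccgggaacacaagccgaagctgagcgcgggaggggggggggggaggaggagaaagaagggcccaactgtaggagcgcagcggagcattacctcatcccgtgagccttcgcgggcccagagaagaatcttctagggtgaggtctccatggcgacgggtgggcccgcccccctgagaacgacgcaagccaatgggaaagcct
Klf2 (chr8:72318812-72319011, plus strand): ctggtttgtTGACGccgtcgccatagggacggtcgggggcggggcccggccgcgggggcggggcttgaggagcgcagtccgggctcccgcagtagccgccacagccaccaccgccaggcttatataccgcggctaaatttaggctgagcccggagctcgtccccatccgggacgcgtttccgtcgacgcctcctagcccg
Klf4 (chr4:55532526-55532725, minus strand): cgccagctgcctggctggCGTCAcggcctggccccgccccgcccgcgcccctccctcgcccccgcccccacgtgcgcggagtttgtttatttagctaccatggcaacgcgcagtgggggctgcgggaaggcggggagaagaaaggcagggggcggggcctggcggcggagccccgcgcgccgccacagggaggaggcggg
Dusp1 (chr17:26508523-26508722, minus strand): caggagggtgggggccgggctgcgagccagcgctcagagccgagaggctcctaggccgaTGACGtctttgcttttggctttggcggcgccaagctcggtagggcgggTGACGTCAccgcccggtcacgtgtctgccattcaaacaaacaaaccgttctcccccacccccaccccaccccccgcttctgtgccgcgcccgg
Windows of 300 bases, from 250 before to 50 after the start, were searched on both strands in 8 members. Egr1 and Ier2 had no window in the source used and were not searched. TGACG was present in 7 of the 8 (Fos, Fosb, Junb, Atf3, Klf2, Klf4 and Dusp1, all but Jun), and in 20.8% of 32851 annotated windows. Those annotated windows were not limited to the tested genes. The full element TGACGTCA, which contains TGACG on both strands, was found in Dusp1 alone of the 8 and in 1.79% of all windows. The EGR motif GCGNGGGCG was found in 3 members (Fosb, Klf2 and Klf4) and 5.55% of all windows. TATAAA was found in Fos and Junb (13.6% of all windows), and CCAAT in Jun, Junb and Atf3 (37.4%). Neither the AP-1 motif TGANTCA (7.81% of all windows) nor the CArG box bound by SRF (1.63%) occurred in the 8 windows. A match describes letters and is no evidence of binding, and a missing match says only that these letters are not in the window.

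Libraries held 32.8 to 49.8 M fragments once the authors' scaling was undone, and mitochondrial genes took 3.15% to 4.97% of counts. Degs2_KO library 3 and WT library 1 had the 2 lowest mitochondrial shares (3.501% and 3.15%) and the fewest detected genes (22560 and 22148, against 22606 to 23183 in the other 6), and WT library 1 had the fewest fragments. Degs2, the targeted gene, had 53.3, 47.7, 65.6 and 65.9 CPM in Degs2_KO libraries 1 to 4, against 151, 109.6, 106 and 120.3 CPM in WT libraries 1 to 4. The groups did not overlap and its log2 fold change, Degs2_KO over WT, was -1.07 ± 0.15 (SE). With edgeR's quasi-likelihood test and Benjamini-Hochberg adjustment its adjusted p was 0.796. That test called 0.0% of 16132 genes (0 at an adjusted p under 0.05, 183 or 1.13% at an unadjusted p under 0.05). limma-trend also called 0, and DESeq2 called 2 of 16090 (0.0124%), Degs2 (adjusted p of 6.96e-07 by DESeq2) and Dlk1, both lower in Degs2_KO. The 13 colonic epithelium markers summed to 26117 to 39153 CPM in Degs2_KO libraries and 24549 to 48465 CPM in WT libraries, so the labelled cell type was present throughout. Single markers could differ more. Muc2 ran from 522 CPM in Degs2_KO library 3 to 24564 CPM in WT library 1, and Car1 had 6570 and 6179 CPM there, against 522 to 1941 CPM elsewhere. Those libraries were the highest pair for 2 of 13 markers and the lowest for 1, beside 17.8% and 16.6% of all tested genes.

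All 10 members were lowest in Degs2_KO library 3 and WT library 1, and those 2 libraries were far apart from the other 6 for most of them. The drop was deepest for Fosb, Klf2 and Dusp1 and smallest for Klf4. Summed over the members, levels were 5420.4, 4970.0, 2027 and 4677 CPM in Degs2_KO libraries, against 1949.8, 4229.7, 3663 and 4633 CPM in WT libraries. Being the lowest pair of the 8 libraries was true of 10 of 10 members and 16.6% of all tested genes, the share that shows how common this pattern is in these libraries. The part of depth, mitochondrial share and gene detection in this was not tested. In bulk RNA, fewer cells of a type and less RNA per cell cannot be told apart.

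The Fos family supplies the partners of JUN in AP-1. Fos (ENSMUSG00000021250, chr12:85473890-85477273, plus strand, GRCm38) had 1206, 1016, 344 and 1018 CPM in Degs2_KO libraries 1 to 4, against 321, 843, 701 and 985 CPM in WT libraries 1 to 4. Degs2_KO library 3 and WT library 1 were low and the other 6 ranged from 701 to 1206 CPM. With all libraries the groups overlapped. Without those low libraries Degs2_KO lay above WT, as in 4.37% of all genes. Those libraries were dropped for these genes' own low values, so nothing is read from that. Fos averaged 896 ± 379 CPM in Degs2_KO and 713 ± 285 CPM in WT (SD, n = 4 each), and its log2 fold change was 0.33 ± 0.42 (SE). Fosb (ENSMUSG00000003545, chr7:19302696-19310051, minus strand), a FOS paralog known for its long-lived splice form, had 465, 492, 16.6 and 455 CPM in Degs2_KO libraries, against 26.7, 341, 283 and 353 CPM in WT libraries. In Degs2_KO the next lowest library was 27.3 times library 3, and in WT it was 10.6 times library 1. Its log2 fold change of 0.51 ± 0.94 had the largest error of the members.

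The Jun family dimerises with FOS proteins or with itself. Jun (ENSMUSG00000052684, chr4:95049034-95052222, minus strand) had 1073, 941, 243 and 915 CPM in Degs2_KO libraries, against 249, 747, 690.2 and 852 CPM in WT libraries. The next lowest Degs2_KO library held 3.76 times library 3, and the next lowest WT library held 2.77 times library 1. Its mean was 793 ± 373 CPM in Degs2_KO and 635 ± 266 CPM in WT, with a log2 fold change of 0.32 ± 0.48. Junb (ENSMUSG00000052837, chr8:84974484-84978718, minus strand), a JUN paralog that can oppose it, had 379.7, 308, 189 and 312 CPM in Degs2_KO libraries, against 161, 385, 272 and 317 CPM in WT libraries. Its range was narrower and WT library 2 held its highest value, so the groups overlapped also without the low libraries. The log2 fold change of Junb was 0.06 ± 0.28.

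The antisense gene Junos, which shares 232 exon bases with Jun on the other strand, had 9.14, 8.86, 1.91 and 5.93 CPM in Degs2_KO libraries, against 2.44, 4.93, 5.64 and 7.31 CPM in WT libraries. It was lowest in the same libraries as Jun, and since no source used here says whether the counting was stranded, reads of the pair cannot be told apart. Prdx2 shares 173 exon bases with Junb, and had 123, 117, 125 and 115 CPM in Degs2_KO libraries, against 123, 110.2, 107 and 109 CPM in WT libraries, with no such drop.

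The balance inside the families, as shares of the summed level per kb of exon, moved with the same libraries. Of the Fos family level, Fosb made up 11.97, 14.4, 1.55 and 13.6% in Degs2_KO libraries, against 2.56, 12.2, 12.1 and 10.9% in WT libraries. Fosl2, a paralog induced later and for longer, made up 5.52, 6.45, 12.5 and 5.25% in Degs2_KO libraries, against 15.005, 7.54, 8.496 and 8.04% in WT libraries, highest where Fosb was lowest. The share of Fos itself stayed between 79.0% and 84.9% in all 8 libraries. Of the Jun family level, Jun made up 51.5, 51.95, 30.1 and 52.7% in Degs2_KO libraries, against 33.5, 43.4, 47.04 and 49.2% in WT libraries. Jund, the family's steadily expressed gene in most tissues, made up 23.2, 24.5, 37.4 and 22.4% in Degs2_KO libraries, against 36.6, 25.5, 27.2 and 25.4% in WT libraries. Jund was the largest of the Jun family in Degs2_KO library 3 and in WT library 1 while Jun was the largest in the other 6. In CPM, Fosl2 (209 and 242) and Jund (158 and 142) were themselves lowest in Degs2_KO library 3 and WT library 1. Their larger shares there are therefore not higher levels.

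**Figure D1:**
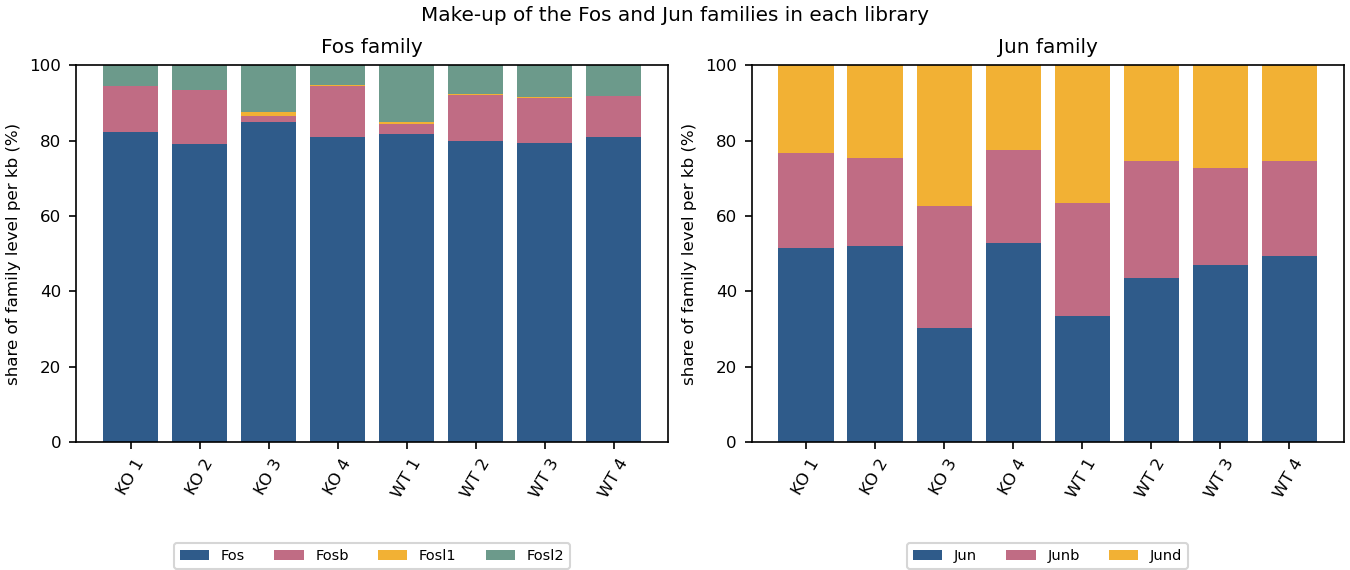
Shares (%) of the Fos family (left) and Jun family (right) level per kb of exon in each library, Degs2_KO libraries first. Fosb takes 1.55% in Degs2_KO library 3 and 2.56% in WT library 1, and 10.9% to 14.4% in the other 6.

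Egr1 and Atf3 are transcription factors outside those families. Egr1 (ENSMUSG00000038418), a zinc finger factor that responds to growth factors, had 347, 355, 88.2 and 339 CPM in Degs2_KO libraries, against 70.3, 297, 203 and 319 CPM in WT libraries. Degs2_KO library 3 stood apart from 3 closely placed Degs2_KO libraries, while WT libraries were more spread. Its log2 fold change was 0.34 ± 0.52. Atf3 (ENSMUSG00000026628, chr1:191170296-191218039, minus strand), a stress-induced factor of the ATF/CREB family, had 76.8, 72.9, 23.6 and 60.3 CPM in Degs2_KO libraries, against 17.97, 57.5, 36.96 and 51.1 CPM in WT libraries. Its means were 58.4 ± 24.2 CPM in Degs2_KO and 40.9 ± 17.5 CPM in WT and its log2 fold change 0.51 ± 0.42. Degs2_KO libraries 1, 2 and 4 lay above all WT libraries for Atf3, and Degs2_KO library 3 lay below all but WT library 1.

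Ier2, Klf2 and Klf4 complete the nuclear factors. Ier2 (ENSMUSG00000053560, chr8:84661331-84662852, minus strand), a nuclear protein with roles in growth factor responses, had 291, 241, 103 and 206 CPM in Degs2_KO libraries, against 94.2, 219.7, 211 and 208 CPM in WT libraries. WT libraries 2 to 4 lay close together, so WT library 1 stood out, and the groups overlapped. Its log2 fold change was 0.20 ± 0.34. Klf2 (ENSMUSG00000055148, chr8:72319033-72321656, plus strand), known for keeping T cells quiescent and for its response to flow in endothelium, had 42.7, 45.3, 2.23 and 35.3 CPM in Degs2_KO libraries, against 3.16, 32.6, 25.9 and 40.3 CPM in WT libraries. Only Fosb had larger gaps between libraries: the next lowest Degs2_KO library held 15.8 times library 3 and the next lowest WT library 8.19 times library 1. Klf2 had a log2 fold change of 0.30 ± 0.86. Klf4 (ENSMUSG00000003032, chr4:55527143-55532466, minus strand), a factor of differentiated colonocytes and goblet cells, had 1415, 1386, 999.9 and 1225 CPM in Degs2_KO libraries, against 982, 1216, 1168 and 1415 CPM in WT libraries. It was also lowest in the same 2 libraries, but by a factor of only 1.23 in Degs2_KO and 1.19 in WT. The log2 fold change of Klf4 was 0.07 ± 0.15.

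Dusp1 is no transcription factor and encodes a phosphatase that switches off MAP kinases. Dusp1 (ENSMUSG00000024190, chr17:26505590-26562128, minus strand) had 123, 114, 17.5 and 113 CPM in Degs2_KO libraries, against 24.1, 89.8, 70.9 and 91.6 CPM in WT libraries. The gene record reaches far upstream, while its longest transcript spans 2930 bases. In Degs2_KO the other 3 libraries were at least 6.43 times library 3, and in WT the other 3 were at least 2.94 times library 1. It averaged 91.9 ± 49.8 CPM in Degs2_KO and 69.1 ± 31.4 CPM in WT, with a log2 fold change of 0.41 ± 0.58.

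**Figure D2:**
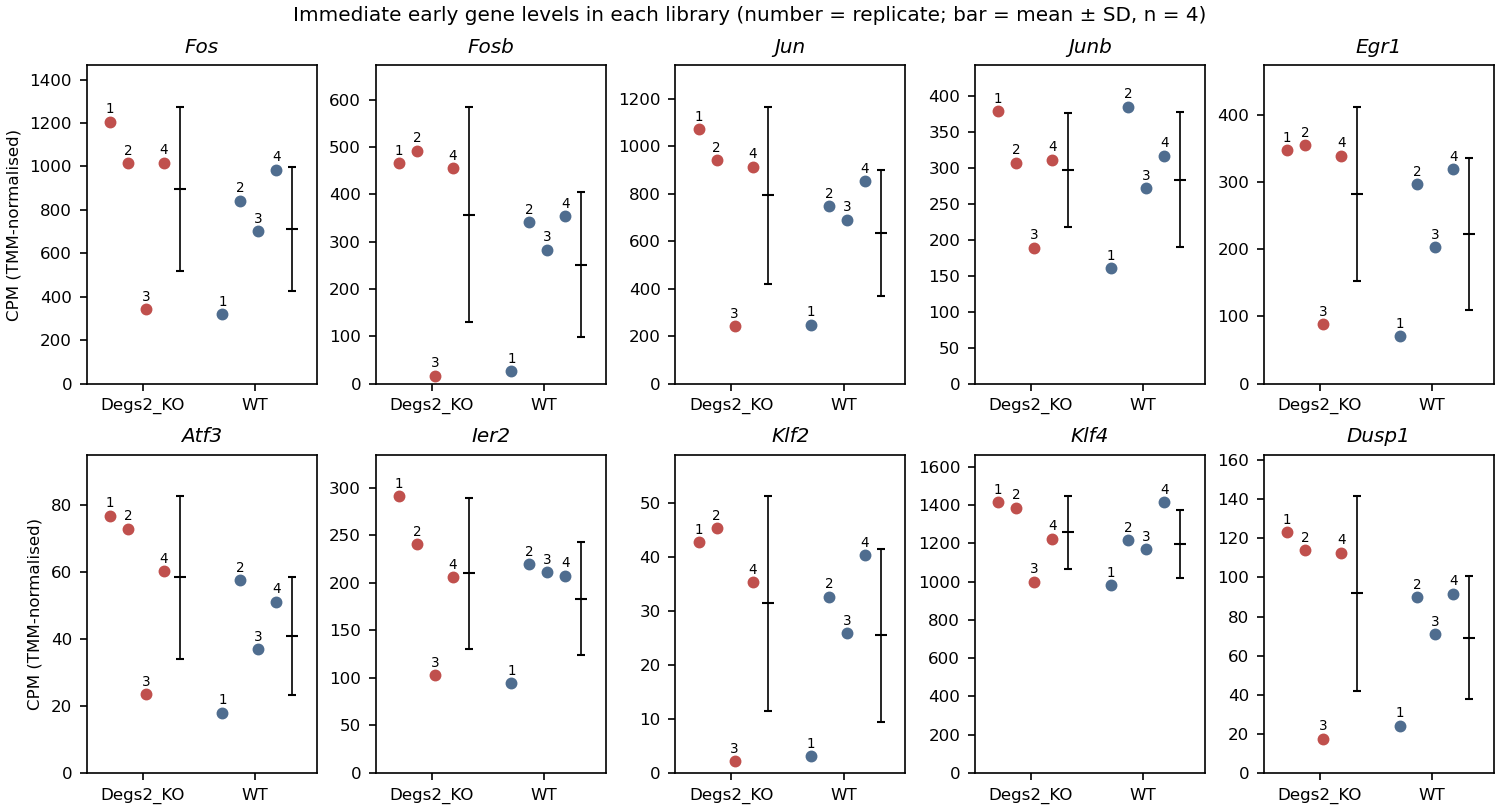
Level (CPM after TMM normalisation) of each of the 10 genes in every library, Degs2_KO left (red) and WT right (blue), numbered by replicate, with mean ± SD (n = 4). Degs2_KO library 3 and WT library 1 hold the lowest value of their group in every panel.

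The spread within genotype differed widely among the members. The pooled within-group SD of log2 CPM was 2.13 for Fosb, 1.9002 for Klf2, 1.16 for Dusp1 and 0.997 for Egr1. It was 0.92 for Jun, 0.78 for Fos, 0.77 for Atf3, 0.62 for Ier2 and 0.49 for Junb. For Klf4 it was 0.22, close to the median over all tested genes of 0.23. The SD of Fosb exceeded that of 99.7% of tested genes and that of Klf4 49.2%. Centred on each gene's mean over 8 libraries, the members' median log2 CPM was 0.75, 0.64, -1.19 and 0.51 in Degs2_KO libraries, against -1.32, 0.40, 0.03 and 0.44 in WT libraries.

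**Figure D3:**
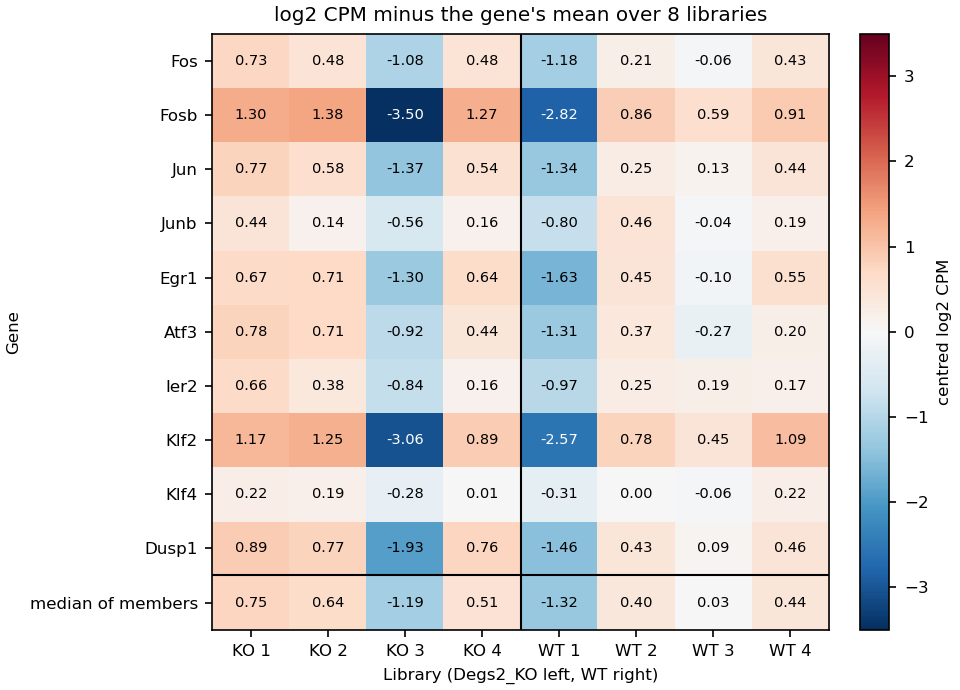
Log2 CPM of each gene minus its mean over the 8 libraries (colour, with the value printed), Degs2_KO libraries left of the line and WT right, and the median of the 10 genes in the bottom row. The columns of Degs2_KO library 3 and WT library 1 are negative for all 10 genes.

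Per kb of exon, the order of the levels was close to the same in both groups. In Degs2_KO it ran Klf4 (412 ± 62.5 CPM per kb, SD, n = 4), Fos, Jun, Ier2, Junb, Egr1, Fosb, Dusp1, Atf3 and Klf2 (17.0 ± 10.8). In WT it ran Klf4 (392 ± 58.3), Fos, Jun, Junb, Ier2, Egr1, Fosb, Dusp1, Atf3 and Klf2 (13.8 ± 8.68). Neighbours in that order differed by less than the larger of their 2 SDs, except for the step down to Egr1. There Junb exceeded Egr1 by 66.1 CPM per kb in Degs2_KO (larger SD 34.4) and Ier2 exceeded it by 70.8 in WT (larger SD 39.1). With the longest transcript as the length, Fosb ranked above Egr1 in WT.

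The genotypes were compared with the same edgeR fit over all tested genes. All 10 members had a positive log2 fold change, between 0.06 for Junb and 0.51 for Atf3 and with a median of 0.33, beside a median of -0.01 and 47.4% positive over all 16132 genes. Without WT library 1 the median was 0.06 and 6 of 10 were positive, with Junb, Ier2, Klf2 and Klf4 negative, and without Degs2_KO library 1 Junb was negative. None of the members was called at an adjusted p under 0.05 with 8 libraries, and the count at an unadjusted p under 0.05 was 0 of 10. Every member's 95% interval included 0, and the SE exceeded the log2 fold change for 9 of 10, all but Atf3. No member's groups of 4 were free of overlap, against 1.04% of all genes. These genes were chosen with this comparison in view, so the counts describe them only.

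A fit without Degs2_KO library 3 and WT library 1 left 3 libraries a group. Both were dropped because of these genes' own low values, so smaller SEs and less overlap for these genes follow from that choice, and nothing is read from them. The members' median log2 fold change was then 0.35, with 10 of 10 positive against 48.6% of 16214 genes. Their SEs were between 0.11 and 0.17, against 0.15 to 0.94 with 8 libraries. The values were 0.53 ± 0.11 for Fosb, 0.53 ± 0.17 for Atf3 and 0.48 ± 0.11 for Dusp1. They were 0.36 ± 0.15 for Fos, 0.36 ± 0.12 for Jun and 0.35 ± 0.17 for Egr1. Klf2 had 0.32 ± 0.17, Ier2 0.21 ± 0.13, Klf4 0.09 ± 0.12 and Junb 0.04 ± 0.15. In 6 members (Fos, Fosb, Jun, Egr1, Atf3 and Dusp1) all 3 remaining Degs2_KO libraries lay above all 3 remaining WT libraries, as in 4.37% of all genes, and 3 against 3 cannot go below an exact two-sided permutation p of 0.1. edgeR called 0.0% of genes at an adjusted p under 0.05 there, members included (650 of all genes at an unadjusted p under 0.05).

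**Figure D4:**
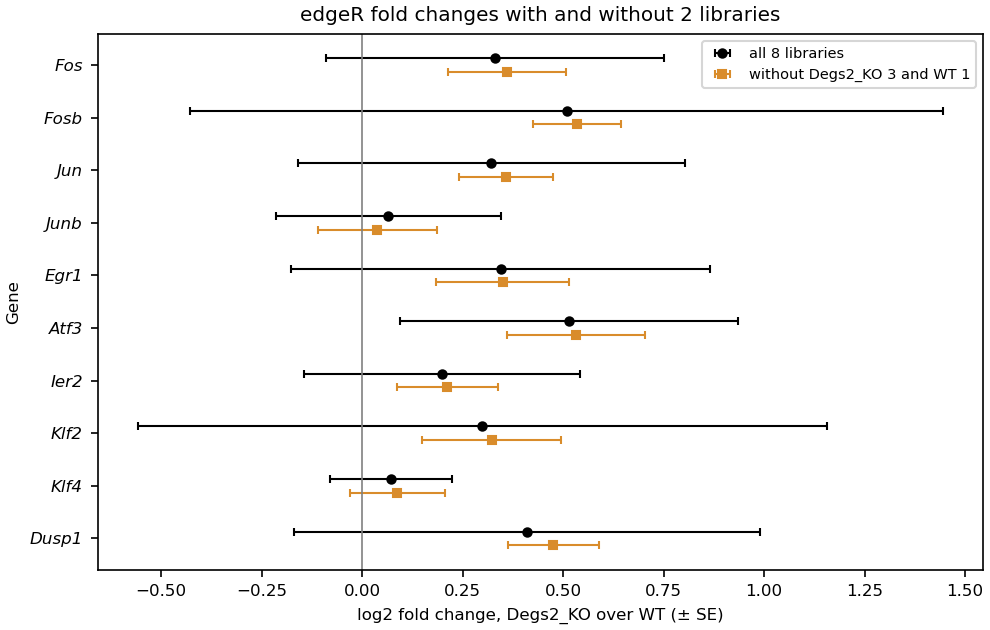
Log2 fold change (Degs2_KO over WT, ± SE, edgeR) of each gene with all 8 libraries (black) and without Degs2_KO library 3 and WT library 1 (orange). The bars are shorter without those libraries, which were left out for these genes' own low values.

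Other genes of the response were counted from lists written with earlier results of these data known. Of 26 other primary response genes 24 were tested, 15 higher and 9 lower in Degs2_KO, none called, and their median log2 fold change was 0.06. Degs2_KO library 3 and WT library 1 were the lowest pair for 12 of the 24, beside 16.6% of all tested genes. Of all tested genes 47.4% were higher in Degs2_KO. Ccn1, a secreted matrix protein, had 37.1, 36.01, 4.004 and 40.1 CPM in Degs2_KO libraries, against 4.07, 22.4, 15.2 and 26.8 CPM in WT libraries and a log2 fold change of 0.78 ± 0.70, and followed the members. Gadd45g, a stress and growth arrest gene, had 25.3, 27.8, 14.5 and 30.8 CPM in Degs2_KO libraries, against 24.6, 18.8, 12.01 and 18.2 CPM in WT libraries (0.42 ± 0.27) and did not have its lowest pair there. Arc, best known from neurons and chosen after its values were seen, had 5.899, 7.73, 0.767 and 7.73 CPM in Degs2_KO libraries, against 0.482, 7.17, 3.37 and 3.03 CPM in WT libraries.

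Upstream genes (growth factor ligands, receptors, MAP kinases and SRF or TCF factors) had 20 of 21 tested, 9 higher and 11 lower, with a median of -0.003 and 0 called. Their lowest pair was those 2 libraries for 6 of 20, beside 16.6% of all tested genes. Erbb3, a receptor that partners ERBB2, had 352, 367, 403 and 379 CPM in Degs2_KO libraries, against 401, 408, 447 and 536 CPM in WT libraries (-0.26 ± 0.11). Erbb2 itself had a log2 fold change of -0.22 ± 0.12.

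Feedback regulators (MAP kinase phosphatases, Sprouty and Spred proteins and mRNA-decay factors of the ZFP36 family) had 18 of 19 tested, 10 higher and 8 lower, and 0 called. The lowest pair was the same for 9 of 18. The share over all tested genes, 16.6%, stands beside this count and the other lowest-pair counts of this paragraph. Zfp36l2 and Zfp36l1, which bind AU-rich mRNAs, had log2 fold changes of -0.21 ± 0.17 and -0.21 ± 0.19. Other AP-1, ATF and CREB factors (14 of 16 tested, 6 higher, 8 lower, 0 called) shared the lowest pair in 2 of 14, with Atf4, the integrated stress response factor, at 0.14 ± 0.11 and Mafg at -0.10 ± 0.10. Other Krüppel-like factors (11 of 12 tested, 1 higher, 10 lower, 0 called) shared it in 4 of 11, with Klf7 at -0.29 ± 0.23 and Klf9 at -0.09 ± 0.08. Delayed targets of AP-1, EGR or SRF (12 of 20 tested, 6 higher, 6 lower, 0 called) shared it in 1 of 12, with the cyclin Ccnd1 at 0.26 ± 0.11 and the cytokine Il11 at -0.62 ± 0.37.

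The 10 genes whose centred levels lay nearest the members' median profile, among 9753 with a mean log2 CPM of at least 3, were Ppp1r15a, Vsig1, Tppp3, Hbegf, Rhob, Arntl, Eno3, Ano1, Ggh and Cldn8. Their mean absolute differences over 8 libraries ran from 0.11 to 0.26 log2 units, against a median of 0.67 over the genes compared. Ppp1r15a, a phosphatase subunit that restores translation after stress, had 40.9, 40.9, 13.1 and 45.9 CPM in Degs2_KO libraries, against 11.6, 36.3, 27.2 and 34.7 CPM in WT libraries. Hbegf, an EGF receptor ligand, had 87.9, 52.3, 29.7 and 63.8 CPM in Degs2_KO libraries, against 16.5, 53.9, 41.9 and 63.4 CPM in WT libraries. These genes were picked by likeness, so their low values in the same libraries follow from that. Arntl, a circadian clock factor, had 59.9, 48.5, 14.05 and 66.99 CPM in Degs2_KO libraries, against 15.7, 53.6, 58.4 and 60.3 CPM in WT libraries. The chloride channel gene Ano1 had 350.3, 360.5, 136 and 328 CPM in Degs2_KO libraries, against 149, 387, 390.1 and 383 CPM in WT libraries. The same 10 were nearest under the other scalings tried, median-of-ratios factors and library totals.

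Other lists moved with the same 2 libraries. The 9 tested posterior Hox genes are known to mark position along the gut. Their median centred log2 CPM was 0.57, 0.65, -2.25 and 0.29 in Degs2_KO libraries, against -3.25, 1.58, 1.39 and 0.74 in WT libraries. Of these genes 8 of 9 had the same lowest pair, beside 16.6% of all tested genes (2 higher and 7 lower in Degs2_KO, 0 called). Hoxd10 had 5.49, 3.37, 0.0479 and 2.396 CPM in Degs2_KO libraries, against 0, 7.404, 8.05 and 3.87 CPM in WT libraries, and Hoxd9 a log2 fold change of -0.90 ± 0.93. Small intestine and proximal gut genes went the other way at -0.60, -0.57, 1.504 and -0.65 in Degs2_KO libraries, against 1.26, -0.61, -0.98 and 0.26 in WT libraries, with Degs2_KO library 3 and WT library 1 the highest pair for 5 of 10, as for 17.8% of all tested genes (9 of 10 lower in Degs2_KO, 0 called). Reg3b, an antimicrobial lectin, had 0.578, 0.237, 13.7 and 0.451 CPM in Degs2_KO libraries, against 64.2, 2.33, 0.191 and 14.4 CPM in WT libraries (-2.43 ± 1.63), and Rbp2 a log2 fold change of -0.31 ± 0.17. The part of gut position in the members' levels was not tested.

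Heat shock genes, chaperones that respond to protein damage, had a median centred log2 CPM of -0.10, 0.37, -0.11 and 0.22 in Degs2_KO libraries, against -0.35, 0.42, -0.17 and -0.41 in WT libraries. WT library 4 held the lowest median, and 2 of 13 genes shared the members' lowest pair, beside 16.6% of all tested genes. Higher in Degs2_KO were 12 of 13 (0 called), beside 47.4% of all tested genes. Hspd1, a mitochondrial chaperone, had a log2 fold change of 0.23 ± 0.11 and Hspa1a, the inducible HSP70, 0.85 ± 0.58. The sources used here give no handling times per library, and the part of handling was not tested.

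**Figure D5:**
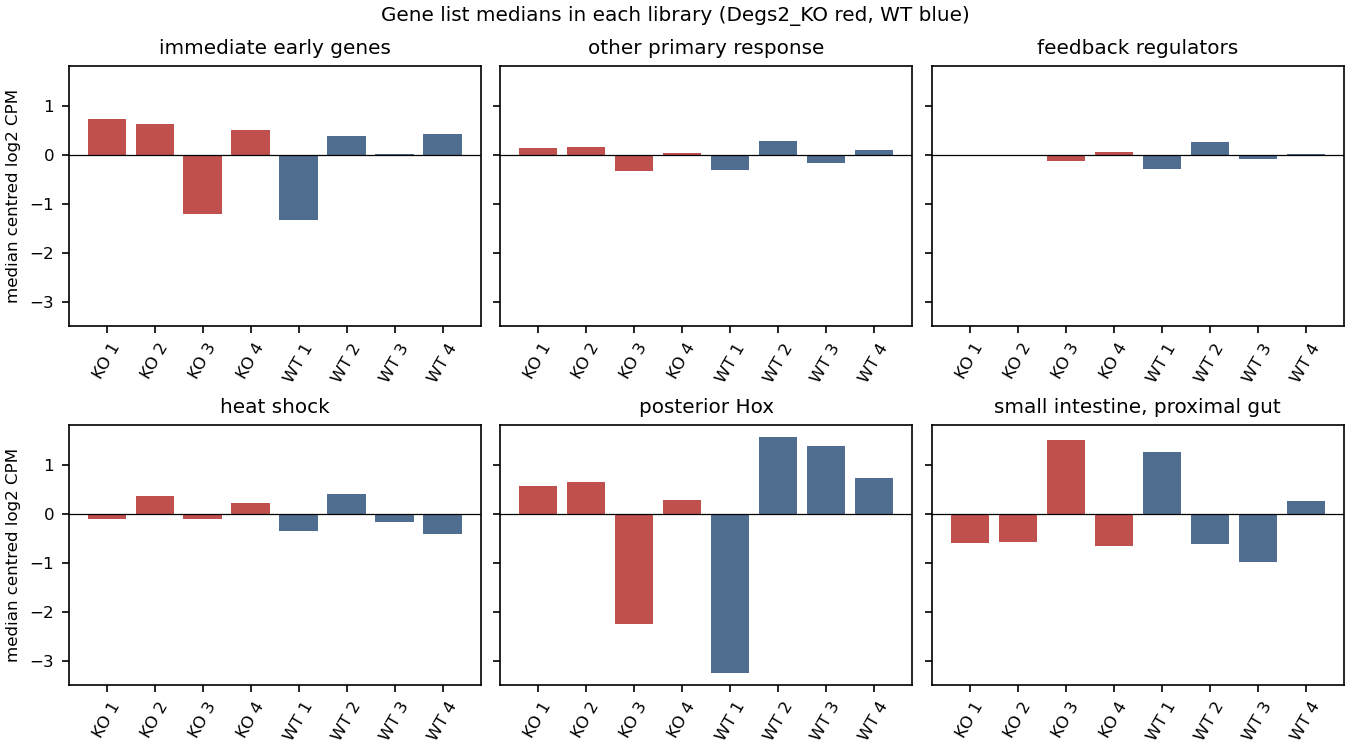
Median log2 CPM, centred per gene, of 6 gene lists in each library (Degs2_KO red, WT blue). Posterior Hox genes are lowest in the libraries where the immediate early genes are lowest, small intestine genes are highest there, and the lowest heat shock median is that of WT library 4.

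Markers of other cells were low beside the epithelial ones. The 9 T cell markers, all tested, summed to 14.2, 9.86, 24.99 and 6.38 CPM in Degs2_KO libraries, against 30.7, 8.79, 3.56 and 15.4 CPM in WT libraries. That sum was highest where Klf2 was lowest, in Degs2_KO library 3 and WT library 1, which were the highest pair for 6 of 9 markers and 17.8% of all tested genes (5 higher, 4 lower, 0 called, Cd8b1 -0.66 ± 0.57, Itgae -0.29 ± 0.34). The part of these cells in the members' levels was not tested. Endothelial markers summed to 1.56 to 3.22 CPM in Degs2_KO and 2.73 to 5.38 CPM in WT, with 1 of 6 tested (Pecam1, -0.60 ± 0.28) and Emcn at 0 in all libraries. Fibroblast markers summed to 1.34 to 15.7 CPM in Degs2_KO and 4.06 to 30.3 CPM in WT, with 4 of 6 tested, all lower (Dcn -1.32 ± 0.83, Col1a2 -1.23 ± 0.88) and 0 called. Myeloid markers summed to 5.28 to 5.83 CPM in Degs2_KO and 5.00 to 8.62 CPM in WT (C1qa -1.5 ± 0.72, Itgam -0.20 ± 0.31, 0 of 6 called). Degs2_KO library 3 and WT library 1 were their lowest pair for 3 of 6 (Lyz2, Csf1r and C1qb), beside 16.6% of all tested genes. They were the highest pair for 1 of 6, beside 17.8%. The part of myeloid cells in the members' levels was not tested. The C1qa value rests on WT library 1, with 2.51 CPM against 0.19 to 0.46 CPM in every other library. B cell and smooth muscle markers summed to at most 1.62 CPM, with none tested. Among the epithelium markers, 8 were higher and 5 lower (Krt18 0.19 ± 0.09, Slc26a3 -0.18 ± 0.21, 0 called).

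The members share a compact structure that their choice did not use. By GENCODE M21 on GRCm38, 9 of 10 had at most 4 exons in their longest transcript, all but Klf4, against 22.2% of 13303 tested protein-coding genes. That transcript spanned 10 kb or less in 9 of 10, all but Atf3, against 26.9%. The AU-rich heptamer TATTTAT, known from unstable mRNAs, was present in the 3′ UTR of 6 of 10 (Fos, Fosb, Jun, Atf3, Klf2 and Dusp1) and of 29.4% of the genes with a 3′ UTR. The core ATTTA reached 5.80 per kb in Dusp1 and 4.91 in Fos, with a median of 2.09 over the members and 1.27 over all, and Ier2 had none. Klf4 and Junb, which varied least between libraries, both lacked the heptamer, as did Egr1 and Ier2.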

How the data were processed

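RNA-seq of distal colon epithelial cells was compared between Degs2_KO (4 libraries) and WT (4 libraries), grouped by their titles. The submitters' processing notes name Cufflinks 2.1.1, Cuffdiff, TopHat2 2.0.10, cutadapt 1.9 and mm10. No source used here gives the order of the steps or the annotation. The deposited file holds estimated counts per gene and library, made by the authors and named so per the file headers. Values up to 100 were whole multiples, within 0.02, of 1 step per library for 96.9% to 97.2% of them, so the authors' scaling compresses the difference in depth (0.871 to 1.31 deposited units per fragment). Totals as deposited were 41.6 to 44.6 M.

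Of 54141 IDs, 54074 matched a GENCODE M21 symbol, and 47 genes with a FAIL or HIDATA status were left out. Counts were rounded, filtered with edgeR 4.0.16 filterByExpr (minimum 10, total 15), normalised by TMM and fitted by genotype alone with the quasi-likelihood test (R 4.3.3) and Benjamini-Hochberg adjustment at 0.05. Each SE is the log2 fold change divided by the square root of its F statistic. Log2 CPM used a prior count of 2. The script was tested on simulated data. Members and lists were chosen with earlier results of these data known. Of each of the 16 other lists, genes past an adjusted p of 0.05 were named, or failing that the 2 tested genes with the smallest unadjusted p (fewer where fewer were tested). The 10 nearest genes were those with the smallest mean absolute difference in centred log2 CPM. Alternatives were median-of-ratios factors, library totals, DESeq2 1.42.0, limma-trend (limma 3.58.1), no filter, a stricter filter (1 CPM and 50 counts in total), blocks on replicate or ID number, the authors' scaling undone and each library left out. A fit without Degs2_KO replicate 3 and WT replicate 1 was added after the data were seen. Intervals cover these libraries only.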

Additional observations from a re-analysis of the deposited data

Results flagged for a closer look

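In 4 of the 20 gene and genotype groups, 1 library lay further from its 3 fellows than Dixon's 95% critical value allows. The rule takes the gap over the range in CPM, without logs, and chance meets it in about 1 in 20 groups. These were Fosb in Degs2_KO (0.922), Egr1 in Degs2_KO (0.941) and Dusp1 in Degs2_KO (0.899), each through the low value of replicate 3. The fourth was Ier2 in WT (0.905), through the low value of replicate 1. All 4 belong to the 2 libraries by whose low levels the genes were chosen, so the flags describe that choice.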

How the results depend on the processing

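The genotype comparison called 0 members under every alternative, and 0 genes under all but DESeq2 (2). The 183 genes at an unadjusted p under 0.05 became 401 without the filter, 99 with a replicate block, 79 with an ID number block (3 pairs, which also leaves out Degs2_KO replicate 2 and WT replicate 4), 133 to 782 with 1 library left out (782 without WT replicate 1, 298 without Degs2_KO replicate 1 and 292 without Degs2_KO replicate 3) and 650 without Degs2_KO replicate 3 and WT replicate 1. The cause of these shifts was not tested. The count of members higher in Degs2_KO was 10 of 10 in every fit except those without WT replicate 1 (6) and without Degs2_KO replicate 1 (9), a range of 6 to 10. With 1 library left out, log2 fold changes ranged from -0.12 to 0.25 for Junb, -0.013 to 0.43 for Ier2, -0.064 to 0.69 for Klf2 and -0.0041 to 0.17 for Klf4. The 4 negative values came without WT replicate 1, and Junb was also negative (-0.065) without Degs2_KO replicate 1. The members' median log2 fold change (0.33) ranged from 0.06 without WT replicate 1 to 0.63 without Degs2_KO replicate 3. It was 0.16 without Degs2_KO replicate 1, 0.55 without WT replicate 4 and 0.35 without both Degs2_KO replicate 3 and WT replicate 1. Same-numbered libraries did not all deviate together (r of -0.43, 0.44, -0.56 and -0.10 over genes for numbers 1 to 4). Degs2_KO replicate 3 and WT replicate 1, of unlike number, did (r of 0.75). With libraries that stand apart in this way, these values cannot say whether the numbers pair the samples. With the replicate block the members' median was 0.26 and with the 3-pair ID number block 0.32. With 4 libraries a group and SEs up to 0.94, large shifts of several members in either direction were not excluded. The confidence interval of the log2 fold change was -1.616 to 2.632 for Fosb and -1.645 to 2.243 for Klf2. It was -0.91 to 1.73 for Dusp1, -0.84 to 1.53 for Egr1 and -0.77 to 1.41 for Jun. For Klf4, with the smallest SE, it was -0.27 to 0.42. The same edgeR test did not call Degs2 at a log2 fold change of -1.07 (adjusted p of 0.796).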
